A study of Homo sapiens with 6 samples.

Results

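NU7441 treatment of C4-2 prostate cancer cells for 24 h at 1 µM was compared with vehicle, over 4 of the 6 arrays of the series and 5195 of its 14812 named genes. The 2 NU7441 arrays and 2 control arrays were taken by their labels, and the genes by their brightness: the quantile normalized log2 intensity had to average above 6 over all 6 arrays. C4-2 is an established line derived from LNCaP prostate cancer cells that can grow after castration of the host, and the cells were kept in medium that contained hormones. Control cells were labelled as DMSO treated, and NU7441 cells received 1 µM of the compound for 24 h. The remaining 2 arrays came from cells transiently depleted of DNA-PKcs, for which the protocol gives 96 h of transfection with a PRKDC siRNA pool. That protocol also names a control siRNA pool, but the labels do not say whether the DMSO control cells or the NU7441 cells were transfected. The labels call the arrays of a group biological replicates without naming separate cultures or passages, so p-values measure the spread between these arrays. The filter cut close to MIIP, the dimmest gene inside at a mean of 6.0006 and a log2 fold change of 0.65, and SAE1, the nearest outside at 5.9994 and −0.50.

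DNA-PKcs is the large catalytic kinase that Ku recruits to broken DNA ends, where it promotes end joining. It belongs to the same family of phosphatidylinositol 3-kinase-like enzymes as mTOR, ATM and ATR. In prostate cancer cells it has also been described as a partner of the androgen receptor in transcription. NU7441 occupies the ATP site of the kinase and leaves the protein in place. It is selective for DNA-PK, and mTOR and PI3K are inhibited by it at higher concentrations.

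The cells kept the profile of luminal prostate cells. All 8 measured luminal markers passed the brightness filter. KLK3, which encodes prostate-specific antigen, lay at 9.67 and 9.52 log2 intensity on the control arrays and 10.18 and 9.87 on the NU7441 arrays. FOXA1, a pioneer factor for the androgen receptor, lay at 8.90 and 8.87 against 9.26 and 9.39. KLK3 (0.43 ± 0.12), FOXA1 (0.44 ± 0.11) and NDRG1 (0.89 ± 0.18) rose and none of the 8 fell. The calls of KLK3 and FOXA1 were lost when a control array was left out, and that of NDRG1 was kept. KLK2 did not pass, at deposited intensities of 460 and 364 on the control arrays and 268 and 340 on the NU7441 arrays. Of the markers of basal, neuroendocrine, leukocyte, endothelial and stromal cells only DST, SOX2 and CD68 passed the filter. The summed deposited intensity of the 3 leukocyte, 4 endothelial and 3 stromal markers stayed between 103 and 216 per list on the control arrays and between 78.6 and 168 on the NU7441 arrays. The basal list summed to between 177 and 195 in controls and between 125 and 148 after NU7441. The neuroendocrine list, which holds SOX2, summed to between 825 and 901 and between 218 and 239. The part of these markers in the results was not tested.

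Most bright genes differed between the groups, so a count of called genes in a family has to be read against a high background. With limma's moderated test and Benjamini-Hochberg adjustment over 5195 genes, 3165 passed 0.05, which is 60.9% of those tested: 1737 were higher (33.4%) and 1428 lower (27.5%) after NU7441. Changes of at least 2-fold were more often falls, with 320 genes at least 2-fold higher (6.16%) and 651 at least 2-fold lower (12.5%). The filter is a mean over all 6 arrays, so a gene that is dim in one group can pass through the other. Of the higher genes 234 averaged below 6 on the control arrays, and of the lower genes 327 did so on the NU7441 arrays. Counts and medians over tested list members are therefore a description of the bright members. With no filter 4154 of 14812 genes were called (28%), 14.3% of all higher and 13.8% lower, and counts over all named members of a list, given where the filter bore on it, are to be read against those shares. In what follows a pair of log2 intensities gives replicates 1 and 2, the control pair stands first, and a value in brackets is the log2 fold change, NU7441 minus control. A gene is said to have risen or fallen only where it passed 0.05, and the value after ± is the moderated standard error of a log2 fold change with n = 2 per group. Over all tested genes the log2 fold change had a median of 0.13, and medians of gene lists are given relative to it. Centring each array on its median instead moved that value to 0.40 and the share of calls that were lower from 45.1% to 27.4%, with 2354 genes higher and 889 lower. Without control replicate 1 or 2 the calls fell to 1689 and 1466, or 32.5% and 28.2% of the genes, and of 54 gene lists 38 and 41 had the larger of their higher and lower counts change by over 1.5 times. For lists of more than 10 tested genes such changes, and orders that turned, are given with the list for each array left out and for the scaling, as is a share of higher calls that median centring moved by over 10 points.

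The NU7441 arrays stood apart from each other more than those of the other groups. The correlation of log2 intensities over the tested genes was 0.906 between the NU7441 arrays and 0.987 between the controls, and the median SD of a gene was 0.197 against 0.080. NU7441 replicate 1 had 3797 of 44629 probesets within 0.01 of the lowest deposited intensity, 16, against 1471 for replicate 2 and 452 and 444 for the controls. One fit over the 3 groups gives them a common spread, so standard errors may be too small for NU7441. With an NU7441 array left out, the other is taken to vary like the control and knockdown arrays. A call that is kept in that case, in the counts below, therefore says little of how far the NU7441 arrays agree. Without NU7441 replicate 1 the count of calls was 3329, without replicate 2 it was 3928, and with a spread allowed for each group it was 2891.

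Among the groups that moved mostly one way were the regulators of mTORC1, the kinase complex that couples growth to nutrients. Some of them are known targets of basic helix-loop-helix factors that read the palindrome CACGTG. The promoters of 3 members, picked because they rose and hold CACGTG, are therefore shown first. They are the 250 bases before the start of transcription, from RefSeq on GRCh38.p14. Capitals mark CACGTG.
TSC2 (chr16:2047735-2047984, + strand): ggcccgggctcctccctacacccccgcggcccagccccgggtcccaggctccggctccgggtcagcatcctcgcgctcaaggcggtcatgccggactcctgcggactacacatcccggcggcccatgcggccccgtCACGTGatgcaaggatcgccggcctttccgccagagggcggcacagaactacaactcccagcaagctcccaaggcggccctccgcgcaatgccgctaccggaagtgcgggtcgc
RRAGC (chr1:38859773-38860022, − strand): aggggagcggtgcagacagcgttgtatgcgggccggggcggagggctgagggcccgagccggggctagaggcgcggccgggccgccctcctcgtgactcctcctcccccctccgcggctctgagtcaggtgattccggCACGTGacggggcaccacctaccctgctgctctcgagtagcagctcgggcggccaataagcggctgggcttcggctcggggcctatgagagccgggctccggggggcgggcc
LAMTOR4 (chr7:100148668-100148917, + strand): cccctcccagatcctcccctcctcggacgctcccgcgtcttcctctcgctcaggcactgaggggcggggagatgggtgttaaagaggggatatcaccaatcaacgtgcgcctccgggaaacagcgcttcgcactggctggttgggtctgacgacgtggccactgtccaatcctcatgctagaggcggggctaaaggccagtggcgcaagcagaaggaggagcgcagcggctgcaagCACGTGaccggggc
The match began 114 bases before the start in TSC2, 112 in RRAGC and 14 in LAMTOR4. Over the full window of 250 bases before to 50 after the start, searched on both strands, CACGTG stood in 6 of the 19 tested mTORC1 genes with a promoter in the table (31.6%), and in 3 of 17 autophagy genes (17.6%). It stood in 11.2% of the 4327 tested genes with a promoter there and in 7.43% of all 27305 promoters. The 6 mTORC1 genes were TSC2, RRAGC, LAMTOR4 and FNIP1, which rose, and RRAGB and NPRL3, which did not pass. The 3 autophagy genes were ATG14 and BNIP3, which rose, and ATG3, which fell (−1.55). Across the comparison the motif did not sort the genes: it was in 11.6% of those that rose and 10.4% of those that fell. The longer TCACGTGA, which always contains CACGTG, was in 2.84% and 1.89%, GTAAACA of FOXO factors in 2.56% and 2.55%, TGATGNAA of ATF4 in 1.25% and 1.57%, and CCGGAAGT of ETS factors in 10.4% and 10.7%. Over the 4327 tested genes these 4 motifs were in 2.24%, 2.59%, 1.55% and 10.7%, near the shares of the called genes. Over all promoters of the table, tested or not, they were in 1.04%, 3.41%, 3.67% and 4.44%. A match is a run of letters in this window and says nothing of binding.

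Most called genes around mTORC1 were higher, those that restrain it included. Of 23 mTORC1 genes tested, out of 29 named on the array, 13 were higher (56.5%, against 33.4% of all genes) and 2 lower. Their median lay 0.42 above that of all genes on the log2 scale. SESN1, a sestrin that signals low leucine and is induced by p53 and FOXO factors, lay at 6.78 and 6.65 on the control arrays and 8.06 and 7.95 on the NU7441 arrays, a rise of 1.29 ± 0.16 (2.44-fold, adjusted p = 0.000788). TSC1, at 6.50 and 6.22 against 7.55 and 7.42 (1.12 ± 0.18), and TSC2, at 7.03 and 7.12 against 8.22 and 7.76 (0.91 ± 0.20), encode the complex that switches off Rheb, the GTPase that activates mTORC1. Both NU7441 arrays were above both controls for all 3 genes, whereas RHEB itself, at 7.85 and 7.96 against 7.26 and 7.34, fell (−0.61 ± 0.17). The Rag branch, which brings mTORC1 to the lysosome when amino acids are present, moved up at RRAGC (6.08 and 6.51 against 7.49 and 7.16, 1.03 ± 0.23), at its activator FLCN, folliculin (5.77 and 5.54 against 6.74 and 6.57, 1.00 ± 0.21), at folliculin's partner FNIP1 (0.73 ± 0.16) and at the Ragulator subunit LAMTOR4 (0.86 ± 0.14). NPRL2, of the GATOR1 complex that inactivates the Rags, rose by 0.70 ± 0.13. AKT1S1, or PRAS40, an inhibitory subunit of mTORC1, went from 6.32 and 6.54 to 7.72 and 7.64 (1.25 ± 0.18). MTOR (0.61 ± 0.16), SESN3 (0.85 ± 0.15), DEPTOR (0.55 ± 0.20) and RRAGA (0.42 ± 0.15) were higher too. EIF4EBP1, the translation repressor that mTORC1 phosphorylates, was the other member that fell (−0.48 ± 0.12). The transcription factor TFEB, which mTORC1 keeps out of the nucleus, was at −0.52 ± 0.23 with an adjusted p of 0.0828. Counts of mTORC1 genes were 16 higher and 0 lower with median centring, and 8 higher and 0 lower without control replicate 2.

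The machinery of autophagy, in which a membrane closes around cell contents for delivery to the lysosome, moved the same way. Of 19 tested genes of 29 named, 13 rose and 1 fell, and the median was 0.45 above all genes. ATG2B, which channels lipid into the growing membrane, lay at 6.79 and 6.67 in controls and 7.79 and 8.06 after NU7441 (1.20 ± 0.17, adjusted p = 0.00121). The cargo receptor SQSTM1, or p62, was bright on every array, at 8.39 and 8.34 against 9.14 and 9.52 (0.97 ± 0.15). The mitophagy receptor BNIP3L rose from 8.65 and 8.71 to 9.65 and 9.67 (0.98 ± 0.13). ULK2, one of the initiating kinases, rose by 0.96 ± 0.17 and its scaffold RB1CC1 by 0.58 ± 0.20. AMBRA1 and ATG14, of the complex that makes the phosphatidylinositol 3-phosphate mark, rose by 0.72 ± 0.23 and 0.63 ± 0.22. Of the conjugation system that attaches ATG8 proteins to lipid, ATG7 (0.76 ± 0.21), ATG12 (0.74 ± 0.17) and the ATG8 proteins GABARAPL2 (0.66 ± 0.11) and GABARAP (0.41 ± 0.09) rose. ATG3, the enzyme that carries out the last step of that conjugation, was the exception: it lay at 8.73 and 8.85 in controls and 6.69 and 7.79 after NU7441, a log2 fold change of −1.55 ± 0.30. Counts of autophagy genes were 7 higher and 1 lower without control replicate 1, 6 higher and 1 lower without control replicate 2, and 15 higher and 3 lower of all 29 named with no filter. Among the 27 genes named here as called, 13 kept the call whichever array was left out, and the call was lost by 9 without control replicate 1, 13 without control replicate 2, 2 without NU7441 replicate 1, 1 without NU7441 replicate 2, 4 without knockdown replicate 1 and 4 without knockdown replicate 2, at adjusted p up to 0.237.

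Upstream of mTORC1, several receptor and PI3K pathway genes were higher. Of 38 receptor tyrosine kinases named, 8 were bright enough to test, and 5 of these rose and 0 fell. With no filter 9 of all 38 were higher and 2 lower, at a median of 0.05 relative to all genes, and IGF1R averaged under the filter on the control arrays. IGF1R, the receptor for insulin-like growth factors, was at 5.80 and 5.88 in controls and 7.17 and 6.65 in treated cells (1.07 ± 0.23). ERBB3, a heregulin receptor that docks PI3K, was at 6.63 and 6.55 against 7.59 and 7.48 (0.94 ± 0.16). EPHA6 (0.99 ± 0.19), RYK, a receptor for Wnt ligands (0.67 ± 0.13), and EPHA3 (0.61 ± 0.16) rose as well. EGFR was at 0.45 ± 0.19 (adjusted p = 0.0627) and FGFR1 at −0.78 ± 0.32 (adjusted p = 0.0605). Of 11 phosphoinositide genes 5 rose, among them AKT2 (6.88 and 6.88 against 7.88 and 7.71, 0.92 ± 0.16) and PDPK1, the kinase that activates AKT (0.89 ± 0.17), with the SHIP2 phosphatase INPPL1 (0.83 ± 0.28). PI4K2B, a phosphatidylinositol 4-kinase (−1.48 ± 0.29), and MTMR2, a myotubularin (−1.22 ± 0.46), were the 2 that fell. Phosphoinositide counts were 2 higher and 1 lower with no scaling, without control replicate 2, without knockdown replicate 1 or without knockdown replicate 2, 5 higher and 1 lower with median centring, 3 higher and 1 lower without control replicate 1, and 4 higher and 2 lower of all 17 named with no filter.

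Other signalling families held a few risers each, to be read against 33.4% of all genes higher and 27.5% lower. The shares higher were 42.9% of MAPK inhibitors, 40% of TGF-beta and BMP genes, 44.4% of cytokine receptor genes and 42.9% of G protein genes. On lists this small those lie near the share of all genes. Of 7 MAPK feedback inhibitors, the phosphatases DUSP1 (5.48 and 5.41 against 6.76 and 6.27, 1.08 ± 0.23), DUSP10 (1.00 ± 0.27) and DUSP16 (0.54 ± 0.20) rose and none fell. Of 10 TGF-beta and BMP genes 4 rose and none fell, led by GDF15, a stress-induced cytokine (8.09 and 8.09 against 9.18 and 9.23, 1.11 ± 0.11), and the decoy receptor BAMBI (0.85 ± 0.22), with SKIL (0.77 ± 0.17) and SMAD9 (0.70 ± 0.21). In the Notch and Hippo list 9 of 17 rose, with the Notch coactivator MAML1 (1.10 ± 0.24) and the Hippo effector YAP1 (0.83 ± 0.17) highest. The probesets of YAP1 disagreed, since their mean gave −0.44. There NOTCH2 (−0.76 ± 0.28), HES4 (−0.86 ± 0.20) and AMOTL2, a negative regulator of YAP1 (−0.96 ± 0.31), fell. Of 9 cytokine receptor and JAK-STAT genes 4 rose, including IL6R (0.89 ± 0.17) and LIFR (0.70 ± 0.17). Of 7 G protein and cyclic AMP genes, ADCY6 (0.82 ± 0.24), PDE9A (0.70 ± 0.18) and GNAS (0.62 ± 0.11) rose and the adenylyl cyclase ADCY3 fell (−0.99 ± 0.31). In the BCL2 and caspase list 6 of 11 rose, from both sides of the family: the pro-apoptotic BAD (0.96 ± 0.21), BCL2L13 (0.91 ± 0.20) and BIK (0.65 ± 0.22), and BIRC6, an inhibitor of apoptosis (0.83 ± 0.16), with the protective MCL1 (0.68 ± 0.13) and BCL2L1 (0.50 ± 0.17). HTRA2, a mitochondrial protease (−1.11 ± 0.26), and BCL2L12 (−0.38 ± 0.13) fell there. Of 4 tested genes that act downstream of death and TNF receptors, with no receptor among them, TRAF3 (−0.72 ± 0.21), FADD (−0.54 ± 0.12) and CFLAR (−0.45 ± 0.16) fell. With no filter the counts were 3 higher and 0 lower of 17 MAPK inhibitors, 4 and 3 of 23 TGF-beta and BMP genes, 5 and 1 of 26 cytokine receptor genes and 5 and 2 of 38 G protein genes. Notch and Hippo counts were 10 higher and 1 lower with median centring, 4 higher and 0 lower without control replicate 1, 0 higher and 0 lower without control replicate 2, and 8 higher and 7 lower of all 41 named with no filter, at a relative median of −0.08. The BCL2 and caspase counts were 6 higher and 1 lower with median centring, 3 higher and 1 lower without control replicate 1, 3 higher and 0 lower without control replicate 2, and 6 higher and 2 lower of all 23 named with no filter, at a relative median of −0.01. Among the 39 genes named here as called, 12 kept the call whichever array was left out, and the call was lost by 19 without control replicate 1, 25 without control replicate 2, 4 without NU7441 replicate 1, 1 without NU7441 replicate 2, 9 without knockdown replicate 1 and 9 without knockdown replicate 2, at adjusted p up to 0.286.

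**Figure D1:**
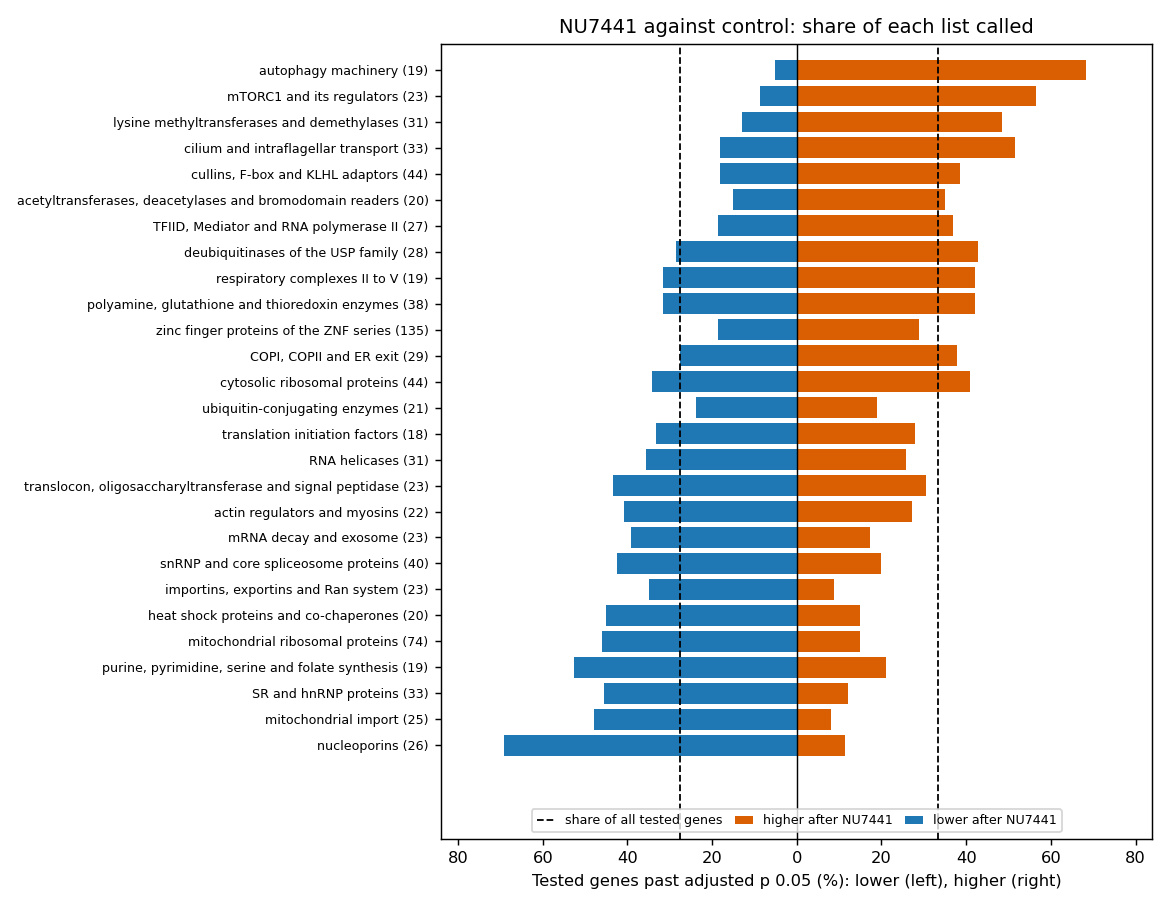
Share of the genes past the brightness filter in each list that passed the threshold of 0.05 and were higher (right, orange) or lower (left, blue) after NU7441, in percent, for the 27 lists with at least 18 tested genes, with the number tested beside each name. The dashed lines mark the shares over all 5195 tested genes, 33.4% higher and 27.5% lower; autophagy lies furthest past the line on the right at 68.4% and nucleoporins on the left at 69.2%.

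The nuclear pore, the channel of nucleoporins through which proteins and RNA cross the nuclear envelope, had the largest share of falls among lists of this size. Of 26 nucleoporin genes tested 18 fell (69.2%, against 27.5% of all genes) and 3 rose. Falls of at least 2-fold numbered 11, against 12.5% of all genes, and the median lay at −0.95 relative to all genes. NDC1, which anchors the pore in the membrane, was at 8.47 and 8.53 in controls and 6.48 and 6.83 after NU7441, a log2 fold change of −1.85 ± 0.20 (3.59-fold, adjusted p = 0.000597). Of the Y complex, the scaffold on both faces of the pore, NUP85 (−1.51 ± 0.23), NUP133 (−1.27 ± 0.46), NUP107 (7.77 and 7.71 against 6.41 and 6.59, −1.24 ± 0.16), NUP37 (−1.22 ± 0.19), NUP160 (−0.82 ± 0.22) and NUP43 (−0.77 ± 0.23) fell. SEH1L, of the same complex, rose by 0.30 ± 0.11. The inner ring members NUP35 (−1.15 ± 0.27), NUP205 (−1.15 ± 0.21), NUP155 (−1.08 ± 0.15) and NUP93 (−0.71 ± 0.15) were lower. On the nuclear basket side NUP50 (7.83 and 7.58 against 5.31 and 6.64, −1.73 ± 0.40) and NUP153 (8.64 and 8.47 against 7.17 and 7.52, −1.21 ± 0.16) fell, and for both every NU7441 array lay below every control. NUP210, a membrane nucleoporin (7.04 and 6.84 against 7.77 and 7.51, 0.70 ± 0.21), and POM121 (0.53 ± 0.19) were the other risers. NUP214 (−0.17 ± 0.19, adjusted p = 0.443) and RANBP2 (−0.34 ± 0.14, adjusted p = 0.0602), of the cytoplasmic filaments, did not pass. The nucleoporin counts were 0 higher and 11 lower without control replicate 1 or control replicate 2.

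The soluble carriers that pass through the pore fell in smaller number. Of 23 importin, exportin and Ran genes 8 fell (34.8%) and 2 rose. KPNB1, importin beta, lay at 9.79 and 9.69 against 8.28 and 8.86 (−1.17 ± 0.17) and TNPO1, transportin, at 9.28 and 9.21 against 7.93 and 8.39 (−1.08 ± 0.16). CSE1L, which returns importin alpha to the cytoplasm, fell by 0.86 ± 0.08. IPO13 (0.75 ± 0.19) and XPO5, the exporter of microRNA precursors (0.69 ± 0.11), rose. Carrier counts were 5 higher and 5 lower with median centring, and 1 higher and 5 lower without control replicate 1. Of the 21 genes named here as called, 11 kept the call whichever array was left out, and the call was lost by 8 without control replicate 1, 8 without control replicate 2, 3 without NU7441 replicate 1, 3 without knockdown replicate 1 and 3 without knockdown replicate 2, at adjusted p up to 0.191.

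**Figure D2:**
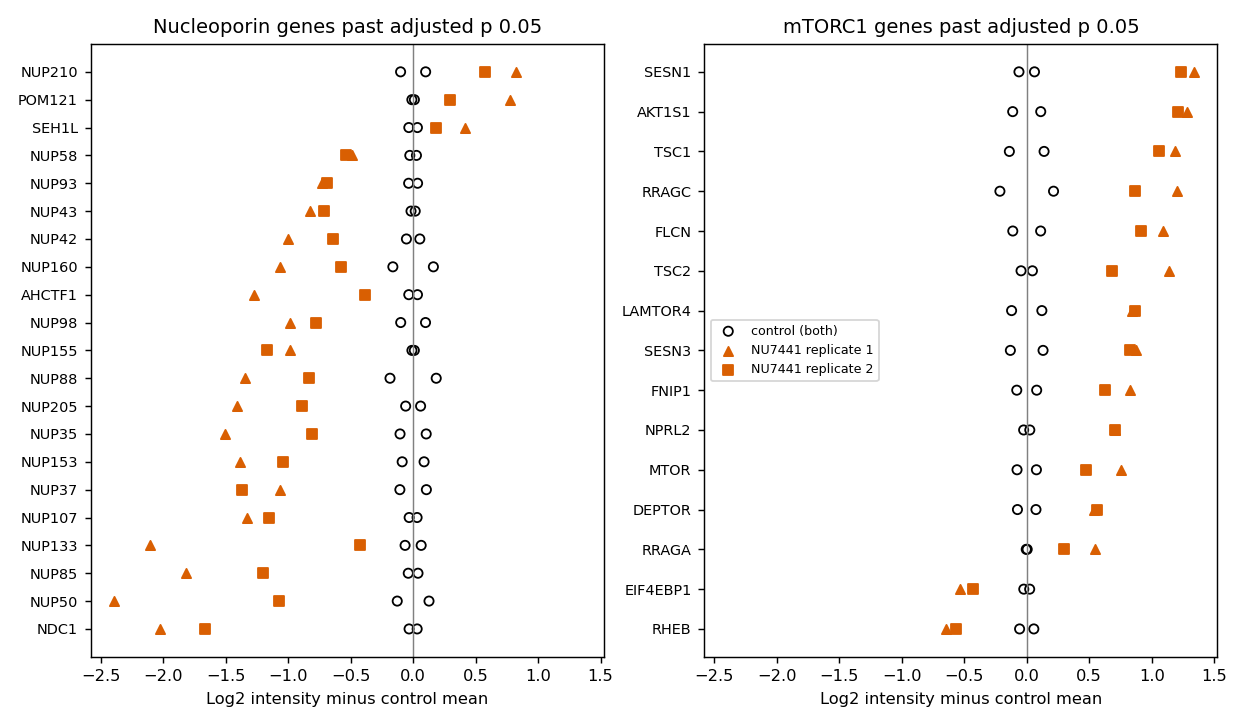
Log2 intensity (quantile normalized) of the nucleoporin genes (left) and of the mTORC1 genes (right) that passed the threshold, each array minus the mean of the control arrays; open circles are the control arrays, filled triangles NU7441 replicate 1 and filled squares replicate 2. Of the called nucleoporins 18 sit below 0 on both NU7441 arrays, from NDC1 at −1.85 to SEH1L, POM121 and NUP210 on the other side, and all mTORC1 genes but RHEB and EIF4EBP1 sit above it.

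Genes for proteins that package and splice RNA fell more often than they rose, although with median centring that order turned for the spliceosome list and became even for the SR and hnRNP list. Of 40 snRNP and core spliceosome genes 17 fell and 8 rose. Falls of at least 2-fold numbered 9, and the median lay at −0.32 relative to all genes. SNRPD1, of the Sm ring that every spliceosomal snRNP but one carries, lay at 9.92 and 10.11 in controls and 7.51 and 8.43 after treatment (−2.04 ± 0.26). U2AF1, which reads the 3′ splice site (8.34 and 8.34 against 6.69 and 6.91, −1.55 ± 0.15), SNRNP40 (−1.52 ± 0.22), BCAS2 (−1.52 ± 0.33) and SNRPA1 (−1.44 ± 0.15) followed. The large catalytic-centre proteins went the other way: PRPF8 lay at 8.85 and 8.74 against 9.62 and 9.40 (0.72 ± 0.11) and the helicase SNRNP200 at 8.07 and 7.97 against 8.78 and 8.72 (0.73 ± 0.12), with PRPF19 also higher (0.67 ± 0.18). Both NU7441 arrays were above both controls for these 3. Among the SR and hnRNP proteins, which bind exons and introns and set splice site choice, 15 of 33 fell and 4 rose. HNRNPH3 (9.83 and 9.74 against 7.62 and 8.44, −1.76 ± 0.23) and HNRNPR (9.10 and 9.08 against 7.30 and 7.94, −1.46 ± 0.20) were lowest. SRSF1, the prototype SR protein, fell by 0.82 ± 0.12. SRSF11 (0.76 ± 0.12) and HNRNPA0 (0.38 ± 0.13) were the highest that passed. The spliceosome counts were 15 higher and 11 lower with median centring, 5 higher and 11 lower without control replicate 1, and 4 higher and 11 lower without control replicate 2. The SR and hnRNP counts were 11 higher and 11 lower with median centring.

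RNA helicases and decay factors were mixed, and with median centring more rose than fell in both lists. Of 31 DEAD- and DEAH-box helicases 11 fell, 7 of them at least 2-fold, and 8 rose. DDX52 (7.90 and 7.87 against 5.58 and 6.49, −1.85 ± 0.28) and DDX42 (−1.50 ± 0.31) were lowest, and DHX36, which unwinds G-quadruplexes, fell by 1.42 ± 0.43. DDX5 (9.92 and 9.76 against 10.65 and 10.65, 0.81 ± 0.08) and DHX40 (0.77 ± 0.17) rose. Of 23 decay genes 9 fell, with CNOT9 of the CCR4-NOT deadenylase at 8.26 and 8.24 in controls and 5.59 and 6.89 after NU7441 (−2.01 ± 0.35). The RNA exosome subunits EXOSC3 (−0.90 ± 0.12), EXOSC8 (−0.89 ± 0.12) and EXOSC9 (−0.83 ± 0.25) fell together with its nuclease DIS3 (−0.82 ± 0.18). PAN3 of the other deadenylase complex (0.99 ± 0.16) and the exonucleases XRN1 (0.77 ± 0.12) and XRN2 (0.53 ± 0.17) rose. Helicase counts were 11 higher and 9 lower with median centring, 2 higher and 7 lower without control replicate 2, and 6 higher and 12 lower of all 47 named with no filter. Decay factor counts were 11 higher and 5 lower with median centring, 2 higher and 5 lower without control replicate 1, and 2 higher and 4 lower without control replicate 2. Among the 26 genes named here as called, 19 kept the call whichever array was left out, and the call was lost by 4 without control replicate 1, 7 without control replicate 2, 2 without knockdown replicate 1 and 2 without knockdown replicate 2, at adjusted p up to 0.19.

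The translation apparatus was mixed, and with median centring more of its genes rose. Of 44 cytosolic ribosomal protein genes, the brightest list of the set, 18 rose and 15 fell, and the median was −0.06 relative to all genes. Of those called only RPL38 changed at least 2-fold, from 10.70 and 10.64 to 8.87 and 9.27 (−1.60 ± 0.13). RPL28 (9.49 and 9.49 against 10.29 and 10.36, 0.84 ± 0.12) and RPL22 (0.80 ± 0.15) were the highest. RPS7 (−0.89 ± 0.13) was the next lowest. Ribosomal protein genes have many processed copies in the genome, so their probes may read more than one. Of 18 initiation factors and their regulators 5 rose and 6 fell. EIF5B, which joins the ribosomal subunits (8.41 and 8.46 against 6.72 and 7.68, −1.24 ± 0.27), and EIF2AK2, or PKR, the kinase that senses double-stranded RNA (7.13 and 6.99 against 6.03 and 6.09), were lowest. EIF2AK1, the haem-regulated kinase of the same substrate, rose (0.81 ± 0.11), as did EIF4E2 (0.54 ± 0.14). EEF2, the translocation factor, rose from 9.73 and 9.61 to 10.46 and 10.53 (0.82 ± 0.08). Of 7 elongation and release factors GSPT1 (−0.59 ± 0.17) and HBS1L (−0.48 ± 0.17) fell. Of 17 cytosolic tRNA synthetase genes 7 fell and 3 rose, an order that turned with median centring: LARS1, for leucine, went from 8.47 and 8.49 to 6.97 and 7.39 (−1.30 ± 0.19) and IARS1, for isoleucine, fell by 1.02 ± 0.17. QARS1, for glutamine, rose by 0.87 ± 0.13 and VARS1, for valine, by 0.45 ± 0.14, the last only on its brightest probeset (mean of probesets −0.21). Ribosomal protein counts were 26 higher and 8 lower with median centring. Initiation factor counts were 7 higher and 3 lower with median centring, 2 higher and 3 lower without control replicate 1, 3 higher and 3 lower without control replicate 2, and 6 higher and 6 lower of all 26 named with no filter, at a relative median of −0.10. Synthetase counts were 8 higher and 2 lower with median centring, 1 higher and 2 lower without control replicate 1 or control replicate 2, and 2 higher and 6 lower of all 18 named with no filter, at a relative median of −0.07. Of the 15 genes named here as called, 10 kept the call whichever array was left out, and the call was lost by 5 without control replicate 1, 4 without control replicate 2, 1 without knockdown replicate 1 and 1 without knockdown replicate 2, at adjusted p up to 0.19.

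In mitochondria the genes for translating and importing proteins fell more often than they rose, an order that turned with median centring, and those of the respiratory chain were split. Of 74 mitochondrial ribosomal protein genes, all of those named on the array, 34 fell (45.9%) and 11 rose. Of these 13 were at least 2-fold lower and none at least 2-fold higher, and the median lay at −0.58 relative to all genes. MRPS5, of the small subunit, lay at 8.33 and 8.32 in controls and 4.65 and 6.64 after NU7441 (−2.68 ± 0.52, adjusted p = 0.00379). Both treated arrays were below both controls, but they lay far apart from each other. MRPS35 (8.77 and 8.76 against 7.16 and 6.98, −1.69 ± 0.17), MRPL1 (−1.45 ± 0.29) and MRPL44 (−1.42 ± 0.22) were next. MRPL54 (6.72 and 6.76 against 7.88 and 7.49, 0.95 ± 0.19) and MRPS12 (0.70 ± 0.19) were the highest. Mitochondrial ribosome counts were 22 higher and 20 lower with median centring, and 8 higher and 20 lower without control replicate 2.

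Of 25 import genes 12 fell and 2 rose. TIMM9, a small chaperone of the intermembrane space, was at 8.26 and 8.34 against 6.08 and 6.84 (−1.84 ± 0.24), TIMM21 at 8.64 and 8.63 against 6.88 and 7.33 (−1.53 ± 0.18). TIMM44, which ties the import motor to the inner membrane channel, fell by 1.30 ± 0.26. At the outer membrane SAMM50 (−1.01 ± 0.19), the channel TOMM40 (−0.94 ± 0.21) and the receptors TOMM70 (−0.92 ± 0.17) and TOMM22 (−0.86 ± 0.12) fell. The small subunits TOMM7 (0.46 ± 0.05) and TOMM6 (0.22 ± 0.07) rose. Of 19 genes of complexes II to V 8 rose and 6 fell, from UQCRH (0.68 ± 0.20) and COX5B (0.54 ± 0.12) down to COX5A (10.77 and 10.82 against 9.58 and 10.18, −0.92 ± 0.17) and ATP5MK, a small subunit of ATP synthase (−1.49 ± 0.25). UQCRHL, a near copy of UQCRH, fell (−1.02 ± 0.14), and which of the pair each probeset reads was not tested. Of 10 genes around the TCA cycle IDH3G (1.07 ± 0.15), OGDH (0.91 ± 0.16) and PDHB (0.37 ± 0.09) rose, and PDHA1 (−0.75 ± 0.13) and DLAT (−0.56 ± 0.11), of the same pyruvate dehydrogenase complex as PDHB, fell. Import counts were 8 higher and 7 lower with median centring, and 1 higher and 7 lower without control replicate 2. Respiratory complex counts were 11 higher and 3 lower with median centring, and 4 higher and 4 lower without control replicate 1. Among the 25 genes named here as called, 19 kept the call whichever array was left out, and the call was lost by 6 without control replicate 1, 3 without control replicate 2 and 1 without knockdown replicate 2, at adjusted p up to 0.177.

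Chaperones and co-chaperones fell more often than they rose, by a margin that median centring took away for the heat shock list. Of 20 heat shock genes 9 fell and 3 rose, at a median of −0.51 relative to all genes. PTGES3, or p23, the HSP90 co-chaperone that also stabilises steroid receptors, dropped from 10.21 and 10.44 to 8.08 and 7.86 (−2.35 ± 0.12, 5.09-fold, adjusted p = 7.79e-05), with little scatter in either group. FKBP5, another HSP90 partner and a known androgen-responsive gene, lay at 8.95 and 8.94 against 7.96 and 8.24 (−0.84 ± 0.14). HSPD1, the mitochondrial chaperonin, fell (−1.43 ± 0.17), as did HSPH1 (−1.01 ± 0.08), HSPA14 (−1.29 ± 0.47) and BAG3 (−0.79 ± 0.20). HSF1, the master factor of the heat shock response (0.50 ± 0.18), and HSPA1A (0.55 ± 0.19) rose. HSPA1A and HSPA1B (0.03 ± 0.09, adjusted p = 0.771) encode almost the same protein, and their probes may read both. All 6 tested prefoldin genes, whose products hand actin and tubulin chains to the chaperonin, were below control, and 4 of them fell: PFDN4 (8.40 and 8.60 against 6.99 and 7.98, −1.02 ± 0.28), VBP1 (−0.87 ± 0.16), PFDN2 (−0.86 ± 0.15) and PFDN1 (−0.64 ± 0.13). Heat shock counts were 6 higher and 6 lower with median centring, and 0 higher and 5 lower without control replicate 1.

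Ubiquitin enzymes were divided. The shares higher and lower were 42.9% and 28.6% of deubiquitinases, 38.6% and 18.2% of cullins and adaptors, and 19% and 23.8% of conjugating enzymes. Those of all genes were 33.4% and 27.5%. Of 28 USP deubiquitinases 12 rose and 8 fell, USP42 (5.77 and 5.25 against 6.55 and 6.65, 1.10 ± 0.29) and USP40 (0.99 ± 0.19) being highest and USP16 (8.52 and 8.55 against 6.88 and 6.49, −1.85 ± 0.17) and USP47 (−1.58 ± 0.35) lowest. Of 44 cullin, F-box and KLHL genes, out of 101 named, 17 rose, led by KLHL24 (5.59 and 5.56 against 6.99 and 6.86, 1.35 ± 0.21) and FBXO33 (1.19 ± 0.29). In that list 8 fell, with the scaffolds CUL5 (−1.51 ± 0.29) and CUL3 (−0.85 ± 0.14) and with FBXO5, an inhibitor of the anaphase-promoting complex (−1.96 ± 0.21). Of 21 ubiquitin-activating and conjugating enzymes 4 rose and 5 fell, with UBA6 (−1.65 ± 0.46) and UBE2T (−1.34 ± 0.13) lowest and UBE2V1 (0.67 ± 0.13) and UBE2H (0.60 ± 0.13) highest. The deubiquitinase counts were 16 higher and 5 lower with median centring, 7 higher and 5 lower without control replicate 1, 3 higher and 3 lower without control replicate 2, and 11 higher and 8 lower of all 44 named with no filter. The cullin and adaptor counts were 5 higher and 6 lower without control replicate 1, 3 higher and 5 lower without control replicate 2, and 16 higher and 19 lower of all 101 named with no filter, at a relative median of −0.06. The conjugating enzyme counts were 10 higher and 4 lower with median centring, 2 higher and 3 lower without control replicate 1, 1 higher and 3 lower without control replicate 2, 8 higher and 6 lower without NU7441 replicate 2, and 3 higher and 5 lower of all 25 named with no filter, at a relative median of 0.09. Of the 25 genes named here as called, 15 kept the call whichever array was left out, and the call was lost by 7 without control replicate 1, 10 without control replicate 2, 1 without NU7441 replicate 1, 1 without NU7441 replicate 2, 2 without knockdown replicate 1 and 2 without knockdown replicate 2, at adjusted p up to 0.229.

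Enzymes that write and erase histone methylation rose in greater number than they fell. Of 31 tested genes 15 rose (48.4%) and 4 fell. Rises of at least 2-fold numbered 8, against 6.16% of all genes, and the median was 0.35 above all genes. The 2 catalytic subunits of Polycomb complex 2 moved in opposite directions: EZH1, the form of resting cells, lay at 5.93 and 5.51 in controls and 7.15 and 7.11 after NU7441 (1.41 ± 0.21). EZH2, the form of dividing cells, lay at 8.34 and 8.45 against 7.66 and 7.68 (−0.73 ± 0.15). The groups did not overlap for either gene. The LSD1-type demethylases were split as well, with KDM1A dropping from 8.46 and 8.48 to 5.83 and 7.10 (4.01-fold lower) and KDM1B rising from 6.52 and 6.34 to 7.61 and 7.49 (1.12 ± 0.16). The list holds 13 Jumonji-type demethylases, a subgroup set apart after the values were seen. Of these 7 rose and 0 fell, against 33.4% and 27.5% of all genes. Among the 7 that rose, 2 averaged below the filter on the control arrays and passed it only through other arrays. The risers were KDM3A, for H3K9 (6.44 and 6.57 against 7.83 and 7.73, 1.27 ± 0.20), KDM4A (1.16 ± 0.20) and KDM4C (1.12 ± 0.25), for H3K9 and H3K36. So did KDM5A (1.11 ± 0.16), KDM5B (7.11 and 7.13 against 8.33 and 8.45, 1.27 ± 0.14) and KDM5C (0.80 ± 0.21), for H3K4, and KDM6B, for H3K27 (1.25 ± 0.26). KDM6A was at −0.07 ± 0.25 with overlapping groups, and KDM2A (0.48 ± 0.21), KDM2B (0.24 ± 0.23), KDM3B (−0.21 ± 0.35), JMJD1C (0.22 ± 0.16) and PHF8 (−0.35 ± 0.22) did not pass either. Of the 15 risers in the whole list 3 averaged below the filter on the control arrays, EZH1 among them. Of the methyltransferases, KMT2D (0.94 ± 0.18), KMT2C (0.80 ± 0.11) and SETD1A (0.82 ± 0.19), all of H3K4, rose, and SUV39H2 (−1.73 ± 0.38) and NSD2 (−0.65 ± 0.21) fell. Histone methylation counts were 20 higher and 3 lower with median centring. 

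Remodellers slide or evict nucleosomes. Of the 14 tested, 8 rose, including CHD6 (6.87 and 6.61 against 7.95 and 7.88, 1.18 ± 0.17), CHD3 (1.09 ± 0.18), ATRX (1.04 ± 0.14), CHD8 (0.88 ± 0.17) and the PBAF subunits PHF10 (0.76 ± 0.17) and PBRM1 (0.67 ± 0.13). BRD7, also of PBAF, fell from 9.20 and 9.13 to 7.25 and 7.28 (−1.90 ± 0.13), and ACTL6A (−1.05 ± 0.32), CHD1 (−0.73 ± 0.24) and INO80 (−0.68 ± 0.21) fell. Among 20 acetylation genes 7 rose, with HDAC6 (1.10 ± 0.26), the tubulin deacetylase, and SIRT7 (0.79 ± 0.22) highest. The coactivators EP300 (0.69 ± 0.12) and CREBBP (0.70 ± 0.20) were among them. HAT1, which acetylates new histones (9.31 and 9.36 against 5.91 and 8.41, −2.17 ± 0.63), HDAC2 (9.13 and 9.09 against 7.50 and 8.25, −1.23 ± 0.23) and KAT2A (−0.68 ± 0.16) fell. The NU7441 arrays disagreed on HAT1 by more than the fold change itself. Of the closely related deacetylases HDAC1 and HDAC2, the first rose (0.63 ± 0.12) where the other fell. Remodeller counts were 9 higher and 1 lower with median centring, and 5 higher and 1 lower without control replicate 2. Acetylation counts were 8 higher and 2 lower with median centring, 4 higher and 1 lower without control replicate 1, 2 higher and 1 lower without control replicate 2, and 8 higher and 3 lower of all 31 named with no filter. Among the 34 genes named here as called, 20 kept the call whichever array was left out, and the call was lost by 8 without control replicate 1, 14 without control replicate 2, 1 without NU7441 replicate 1, 2 without knockdown replicate 1 and 2 without knockdown replicate 2, at adjusted p up to 0.206.

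**Figure D3:**
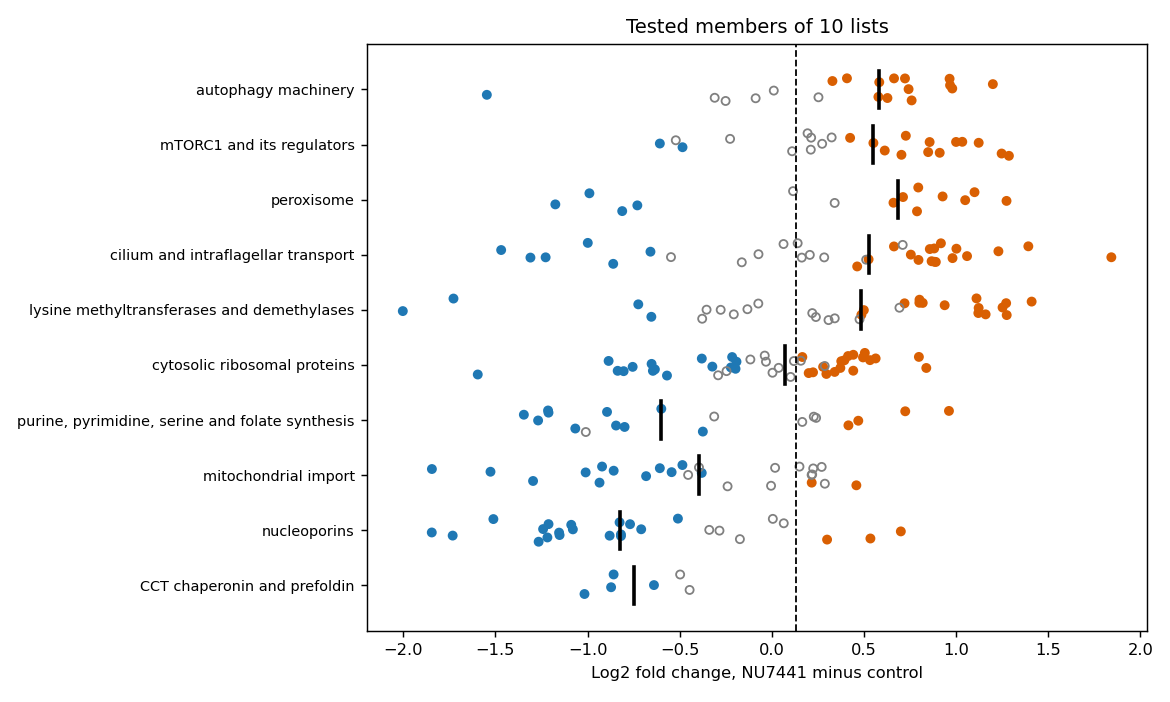
Log2 fold change of every tested gene, NU7441 minus control, in 10 lists; filled points passed the threshold of 0.05, open points did not, the short bar is the list median and the dashed line the median of all tested genes (0.13). Nucleoporins, prefoldins, mitochondrial import and nucleotide synthesis lie mostly below the line, autophagy, mTORC1, peroxisome, cilium and histone methylation genes mostly above it, and the ribosomal proteins around it.

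Enzymes that make nucleotides and their one-carbon precursors fell more often than they rose. Of 19 tested 10 fell and 4 rose, and the median was −0.73 relative to all genes. The first enzyme of purine synthesis, PPAT, lay at 7.75 and 7.84 in controls and 6.20 and 6.96 after NU7441 (−1.21 ± 0.24), and GMPS, which makes GMP, at 9.36 and 9.51 against 7.58 and 8.60 (−1.35 ± 0.28). The phosphoribosyl pyrophosphate synthetases PRPS2 (−1.07 ± 0.18) and PRPS1 (−0.60 ± 0.13), CTPS1 of the pyrimidine branch (−0.85 ± 0.16) and IMPDH1 (−0.89 ± 0.12) were lower. The later purine enzymes ADSL (7.43 and 7.50 against 8.27 and 8.11, 0.72 ± 0.14) and ATIC (0.47 ± 0.10), with IMPDH2 (0.42 ± 0.10) and AHCY, which clears S-adenosylhomocysteine (0.96 ± 0.16), were higher. In serine synthesis PSAT1 (−1.27 ± 0.44) and PSPH (−1.21 ± 0.29) fell while PHGDH, the first enzyme, was at 0.23 ± 0.15 with overlapping groups. Nucleotide and one-carbon counts were 6 higher and 7 lower with median centring, 3 higher and 6 lower without control replicate 1 or control replicate 2, and 4 higher and 9 lower of all 21 named with no filter, at a relative median of −0.44.

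Peroxisomal genes leaned the other way, with 8 of 14 higher and 4 lower at a median 0.55 above all genes. PEX39 (7.25 and 7.69 against 8.86 and 8.63, 1.27 ± 0.18), PEX16 (1.10 ± 0.26) and PEX19 (0.93 ± 0.15), which builds the membrane, rose with PHYH, of branched-chain fatty acid oxidation (1.05 ± 0.13). PEX3, which docks PEX19 (−0.81 ± 0.31), PEX26 (−0.99 ± 0.18) and GNPAT, of ether lipid synthesis (−1.18 ± 0.18), fell with HSD17B4 (−0.73 ± 0.21). Among 38 polyamine and redox genes 16 rose and 12 fell, the polyamine genes in both directions. The synthetic enzymes SMS (9.18 and 9.32 against 7.38 and 7.87, −1.62 ± 0.19), AMD1 (−0.88 ± 0.11), ODC1 (10.38 and 10.36 against 9.69 and 9.71, −0.67 ± 0.08) and SRM (−0.53 ± 0.12) fell. SAT1, which starts their breakdown (8.57 and 8.71 against 9.56 and 9.59, 0.94 ± 0.10), and the ODC antizyme OAZ1 (0.32 ± 0.09) rose, as did the antizyme inhibitor AZIN1 (0.41 ± 0.13), and the antizyme OAZ2 did not pass (0.41 ± 0.25, adjusted p = 0.171). Of the redox enzymes GSTK1 (1.23 ± 0.17), CAT, catalase (1.09 ± 0.14), TXNRD2 (1.03 ± 0.19), GSS (0.94 ± 0.15) and GPX4 (0.87 ± 0.16) rose. GSR, glutathione reductase (−1.10 ± 0.23), PRDX4 (−0.98 ± 0.25) and TXN, thioredoxin (−0.73 ± 0.09), fell. Of 16 phospholipid and sphingolipid genes 6 rose, with the sphingomyelin synthase SGMS1 (6.65 and 6.59 against 7.78 and 7.88, 1.21 ± 0.15), the phosphatidate phosphatase LPIN1 (1.20 ± 0.18) and the glucosylceramide synthase UGCG (0.90 ± 0.15) highest. PTDSS1 (−0.70 ± 0.25) and ACER3 (−0.75 ± 0.26) fell. Peroxisome counts were 8 higher and 2 lower with median centring, 4 higher and 2 lower without control replicate 1, 3 higher and 2 lower without control replicate 2, and 8 higher and 4 lower of all 19 named with no filter. Polyamine and redox counts were 19 higher and 8 lower with median centring, 10 higher and 11 lower without control replicate 1, and 17 higher and 14 lower of all 59 named with no filter. Lipid enzyme counts were 8 higher and 0 lower with median centring, and 9 higher and 0 lower of all 29 named with no filter, at a relative median of 0.39. Of the 40 genes named here as called, 27 kept the call whichever array was left out, and the call was lost by 9 without control replicate 1, 11 without control replicate 2, 2 without NU7441 replicate 1, 4 without knockdown replicate 1 and 4 without knockdown replicate 2, at adjusted p up to 0.266.

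Genes of the secretory route were mixed, and the shares of the first list below lay near those of all genes. Of 29 COPI, COPII and ER exit genes 11 rose and 8 fell, with TMED1 (6.46 and 6.77 against 7.95 and 7.42, 1.07 ± 0.22) and the KDEL receptor KDELR1 (0.78 ± 0.15) highest. ERGIC2 (8.44 and 8.54 against 5.95 and 7.45, −1.79 ± 0.40) and SURF4 (−0.91 ± 0.32) were lowest. ERGIC1 (0.66 ± 0.13) and ERGIC3 (0.76 ± 0.14), of the same recycling compartment, rose. At the translocon 10 of 23 fell and 7 rose: SRP9 (−1.24 ± 0.27) and SRP54 (−1.20 ± 0.23), of the signal recognition particle, and SEC63 (−1.21 ± 0.20) fell. SEC61A2 (0.78 ± 0.17) and DDOST, of the oligosaccharyltransferase (0.63 ± 0.15), rose. The COP and exit counts were 15 higher and 2 lower with median centring, 7 higher and 2 lower without control replicate 1, and 5 higher and 2 lower without control replicate 2. The translocon counts were 10 higher and 6 lower with median centring, and 0 higher and 5 lower without control replicate 2.

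Genes of the cilium, a microtubule-based antenna of the cell surface, rose in 17 of 33 tested cases (51.5%) and fell in 6, at a median 0.39 above all genes. CFAP69 was at 5.65 and 5.95 in controls and 7.71 and 7.57 after NU7441 (1.84 ± 0.22, 3.58-fold). BBS1, of the BBSome coat that moves membrane proteins into and out of cilia, was at 5.55 and 5.48 against 7.27 and 6.54 (1.39 ± 0.27). BBS9 (0.87 ± 0.21) and BBS2 (0.86 ± 0.15) of that coat rose and BBS7 fell (−1.23 ± 0.31). Of the intraflagellar transport trains IFT46 (1.23 ± 0.22), IFT43 (0.98 ± 0.18), IFT122 (0.89 ± 0.30), IFT27 (0.88 ± 0.16) and IFT80 (0.75 ± 0.18) rose. IFT74 (7.62 and 7.56 against 6.03 and 6.54, −1.31 ± 0.26) and IFT20 (7.19 and 7.39 against 5.70 and 6.89) fell, with CFAP36 (−1.47 ± 0.46) the lowest of the list. The transition zone genes TCTN3 (1.06 ± 0.16), TCTN1 (1.00 ± 0.24) and RPGRIP1L (0.80 ± 0.18) were higher. Of the 17 risers 4 averaged below the filter on the control arrays, CFAP69 and BBS1 among them, and so could pass it only through other arrays. The cilium counts were 22 higher and 4 lower with median centring, 11 higher and 1 lower without control replicate 1, 9 higher and 1 lower without control replicate 2, and 18 higher and 14 lower of all 83 named with no filter, at a relative median of 0.06.

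Of the actin list 9 of 22 fell, 7 of them at least 2-fold, and 6 rose. The tropomyosins TPM4 (8.57 and 8.61 against 6.45 and 7.67, −1.53 ± 0.33) and TPM1 (−1.27 ± 0.16), ACTR3 of the Arp2/3 nucleator (−1.39 ± 0.21), the formin DIAPH3 (−1.51 ± 0.21) and RDX, which links actin to the membrane (−1.31 ± 0.33), fell. GSN, which severs actin filaments (5.30 and 5.51 against 7.20 and 6.26, 1.33 ± 0.31), and MYO1C (0.82 ± 0.15) rose. Of 16 tested genes for microtubule-associated proteins and tubulin cofactors, with no tubulin among them, 7 rose and 4 fell. They ran from CLASP2 (0.94 ± 0.21) and TBCB (0.80 ± 0.14) to CKAP5 (−1.56 ± 0.29) and CLIP1 (−1.57 ± 0.32). At the cell surface 9 of 17 tetraspanin and junction genes rose, among them TSPAN31 (0.98 ± 0.22), CLDN15 (0.95 ± 0.23) and CLDN3 (7.61 and 7.77 against 8.66 and 8.57, 0.93 ± 0.13), and TSPAN15 (−0.69 ± 0.17) and TJP1 (−0.58 ± 0.17) fell. The actin counts were 5 higher and 14 lower of all 39 named with no filter. The microtubule counts were 2 higher and 3 lower without control replicate 1, 2 higher and 2 lower without control replicate 2, and 6 higher and 5 lower of all 22 named with no filter. The surface counts were 12 higher and 0 lower with median centring, 5 higher and 0 lower without control replicate 1, 5 higher and 1 lower without control replicate 2, and 13 higher and 7 lower of all 56 named with no filter, at a relative median of 0.05. Lists with few bright members gave single calls: SLIT1 (−1.56 ± 0.36) and EFNB2 (−0.65 ± 0.24) fell and EFNA5 rose (0.44 ± 0.11) among 4 guidance genes. PIEZO1 rose (0.76 ± 0.23) among 4 channel genes, and GALNT11 rose (1.21 ± 0.27) and GALNT7 fell (−0.93 ± 0.19) among 5 Golgi glycosyltransferases. Of 3 meiosis genes tested MSH5 (0.92 ± 0.20) and SYCE3 rose, and SYCP3, with the largest difference of them, was at −2.19 ± 0.89 and did not pass (adjusted p = 0.0595). The lists of proteasome, complex I and Rab genes had under 3 tested genes and those of amino acid, zinc and sugar transporters had none, and they are not described. Among the 50 genes named here as called, 27 kept the call whichever array was left out, and the call was lost by 18 without control replicate 1, 18 without control replicate 2, 2 without NU7441 replicate 1, 3 without knockdown replicate 1 and 3 without knockdown replicate 2, at adjusted p up to 0.22.

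Transcription factors moved singly rather than as families. SOX2, a factor of stem and neural cells, dropped from 9.48 and 9.30 to 6.95 and 6.22 (−2.80 ± 0.23, 6.97-fold, adjusted p = 0.000267), HOXD1 from 7.31 and 7.41 to 4.96 and 4.27 (−2.74 ± 0.26). NKX2-1, a factor of lung and thyroid, dropped from 8.36 and 8.48 to 6.64 and 5.98 (−2.11 ± 0.23). RORB, an orphan nuclear receptor, fell from 8.70 and 8.83 to 6.67 and 5.98 (−2.44 ± 0.22). In each of these 4 the groups were far apart, and in all of them NU7441 replicate 2 was the lowest array. Most other members of their families were too dim to test: 13 of 58 named homeobox genes passed the filter. Of these 3 were higher, CUX1 (0.96 ± 0.18), PKNOX1 (0.65 ± 0.24) and HOXC4 (0.53 ± 0.16), and 4 lower, the others being ONECUT2 (−0.85 ± 0.22) and ONECUT1 (−0.74 ± 0.24). Of 15 SOX, FOX and GATA genes FOXN3 (1.05 ± 0.15) and FOXJ3 (0.82 ± 0.14) were highest, FOXE3 (−1.99 ± 0.24) and FOXM1 (−1.18 ± 0.20) fell with SOX2, and FOXO1 was at −0.80 ± 0.40 with an adjusted p of 0.114. Of 7 Kruppel-like and SP factors KLF13 rose from 5.41 and 5.45 to 7.09 and 6.84 (1.53 ± 0.24), SP3 rose (0.55 ± 0.14) and SP4 fell (−1.36 ± 0.40). In the clock, DBP, a target that oscillates in many tissues, rose (0.87 ± 0.23) and PER3 (−0.72 ± 0.24) and HLF (−0.51 ± 0.19) fell, of 5 tested genes. Of 135 ZNF genes, out of 471 named, 39 rose and 25 fell, shares of 28.9% and 18.5% that lay below those of all genes. ZNF48 (6.85 and 6.69 against 8.53 and 8.29, 1.64 ± 0.19) and ZNF280D (1.13 ± 0.16) were highest, and ZNF830 (8.34 and 8.42 against 4.88 and 5.76, −3.06 ± 0.31) and ZNF317 (−1.54 ± 0.19) lowest. In the general machinery of RNA polymerase II 10 of 27 genes rose (37%, against 33.4% of all genes) and 5 fell (18.5%, against 27.5%). The Mediator subunits MED23 (0.87 ± 0.18), MED29 (0.84 ± 0.20) and MED16 (0.83 ± 0.20) rose with the kinase CDK8 (0.71 ± 0.17). MED8 (6.67 and 6.78 against 5.08 and 5.18, −1.60 ± 0.20), MED9 (−0.94 ± 0.22) and MED10 (−0.93 ± 0.25) fell. With no filter 6 of 58 homeobox genes were higher and 7 lower, and 7 and 6 of 65 SOX, FOX and GATA genes. ZNF counts were 58 higher and 17 lower with median centring, 10 higher and 14 lower without control replicate 1, 11 higher and 10 lower without control replicate 2, and 51 higher and 37 lower of all 471 named with no filter. Mediator list counts were 16 higher and 2 lower with median centring, 5 higher and 2 lower without control replicate 1, 1 higher and 1 lower without control replicate 2, and 8 higher and 8 lower of all 36 named with no filter. Of the 30 genes named here as called, 15 kept the call whichever array was left out, and the call was lost by 12 without control replicate 1, 15 without control replicate 2, 1 without NU7441 replicate 1, 3 without knockdown replicate 1 and 3 without knockdown replicate 2, at adjusted p up to 0.242.

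The genes with the largest changes outside the cell cycle, sterol and lysosome groups did not belong to one pathway. Below control were SSB, the La protein that shields the ends of new small RNAs (9.26 and 9.40 against 6.43 and 6.92, −2.66 ± 0.23), LTV1, an assembly factor of the small ribosomal subunit (8.57 and 8.56 against 5.68 and 6.67, −2.39 ± 0.29), and CBLN1, a secreted organiser of synapses (8.91 and 8.87 against 6.30 and 6.01, −2.73 ± 0.15). CBLN1 had the smallest scatter between the NU7441 arrays of these 3. BMPER, a secreted BMP-binding protein (−2.60 ± 0.47), CX3CL1, the chemokine fractalkine (−2.34 ± 0.37), CLGN, an endoplasmic reticulum chaperone known from testis (−2.32 ± 0.18), PSAPL1 (−2.68 ± 0.35), TMPO, which links lamins to chromatin (−2.24 ± 0.25), TEX30 (−2.47 ± 0.55) and GFOD1 (−2.26 ± 0.76) fell too. For GFOD1 the NU7441 arrays were at 4.17 and 7.17, the widest scatter in this group, and for FASTKD1, a mitochondrial RNA-binding protein, at 4.15 and 6.41 (−2.32 ± 0.58). The recombination proteins PARPBP (−2.56 ± 0.36), RAD51AP1 (−2.42 ± 0.31) and MND1 (−2.36 ± 0.21) completed the lowest 20 with genes described above.

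Above control, SYCE3, a protein of the meiotic synaptonemal complex, rose from 6.98 and 7.15 to 9.08 and 8.87 (1.92 ± 0.15, adjusted p = 0.000244), and TP53INP1, a p53-induced protein of stress and autophagy, from 8.04 and 7.83 to 9.81 and 9.72 (1.83 ± 0.13). PCMTD1, at 8.45 and 8.50 against 10.36 and 10.04 (1.73 ± 0.12), was the brightest of the group. GRB10, which binds the insulin receptor and curbs its signal (7.31 and 6.83 against 8.89 and 8.69, 1.72 ± 0.20), and RDH11, a retinol dehydrogenase abundant in prostate (8.30 and 8.12 against 9.78 and 9.84, 1.60 ± 0.11), were also bright. EVC, a Hedgehog regulator at the base of the cilium (1.73 ± 0.18), SBF2, a myotubularin relative that activates Rab GTPases (1.52 ± 0.15), TRAPPC6A, of a vesicle tethering complex (1.43 ± 0.18), and CALCOCO1, a coactivator and autophagy receptor (1.42 ± 0.23), rose. So did CNFN (1.72 ± 0.20), NUDT14, a UDP-glucose pyrophosphatase (1.70 ± 0.22), TP53I13 (1.60 ± 0.26), TMEM45B (1.59 ± 0.31), TSACC (1.51 ± 0.23), TCF25 (1.44 ± 0.15) and SEZ6L2 (1.44 ± 0.18). Among the 30 genes named here as called, 28 kept the call whichever array was left out, and the call was lost by 1 without control replicate 1, 2 without control replicate 2, 1 without knockdown replicate 1 and 1 without knockdown replicate 2, at adjusted p up to 0.108.

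Some entries of the array stand for microRNA genes, where probes read the hairpin or the longer primary transcript and not the mature form. The array names 1022 entries with a microRNA symbol, and 26 microRNA entries passed the filter. Of these 7 rose and 10 fell, against 33.4% and 27.5% of all genes, and their median lay at −0.42 relative to all genes. They were not on any list, and those named here were chosen after their values were seen. Most called entries named below rose, so they do not reflect this balance. Their mature sequences, from RefSeq on GRCh38.p14 with the seed, bases 2 to 8, in capitals, show which entries share a target-recognition seed.
miR-99a-5p (chr21:16539101-16539122, + strand): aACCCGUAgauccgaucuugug
let-7c-5p (chr21:16539838-16539859, + strand): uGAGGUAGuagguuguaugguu
let-7a-5p (chr22:46112752-46112773, + strand): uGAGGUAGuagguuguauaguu
miR-29c-3p (chr1:207801865-207801886, − strand): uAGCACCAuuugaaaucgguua
miR-3200-3p (chr22:30731610-30731631, + strand): cACCUUGCgcuacucaggucug
MIR99A, on chromosome 21, went from 7.26 and 7.15 to 8.89 and 9.28 (1.88 ± 0.17), the largest rise of any microRNA entry. MIRLET7C lies beside it on the same strand and was at 6.31 and 6.16 against 6.32 and 6.98 (0.41 ± 0.26, adjusted p = 0.192). MIRLET7A3, on chromosome 22, has the seed GAGGUAG in common with let-7c and rose from 6.19 and 6.04 to 7.57 and 7.22 (1.28 ± 0.20). MIR29C rose from 6.36 and 6.12 to 8.21 and 7.53 (1.63 ± 0.24). MIR3200, the lowest of the entries, fell from 8.47 and 8.34 to 5.67 and 5.03 (−3.05 ± 0.23). The NU7441 and control arrays did not overlap for MIR99A, MIRLET7A3, MIR29C and MIR3200. Of the 4 genes named here as called, 4 kept the call whichever array was left out.

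Blocking the kinase and removing the protein were compared directly, NU7441 against depletion of DNA-PKcs, in the same fit. In that test 1614 genes (31.1%) differed, 761 higher and 853 lower with NU7441. The 2 treatments differ in duration, and the labels do not say whether the NU7441 cells were transfected. The control means cancel in this difference, and the control arrays still enter the common spread. SOX2 lay at 8.98 and 8.78 on the knockdown arrays, and thus −2.29 ± 0.23 apart from NU7441 (adjusted p = 0.00133), CBLN1 at 8.42 and 8.34 (−2.23 ± 0.15) and RORB at 8.54 and 8.52 (−2.21 ± 0.22). In all 3 the knockdown arrays lay nearer to the controls than to the NU7441 arrays. These genes were picked as among the lowest with NU7441 in both comparisons, so this position follows largely from the choice. MT1F, a metallothionein with close relatives, was the lowest with NU7441 relative to depletion, at 9.25 and 9.17 after knockdown and 5.97 and 6.86 after NU7441 (−2.79 ± 0.27). EAF2, an androgen-responsive elongation factor partner (−2.33 ± 0.27), SUMO2 (−1.97 ± 0.25), PARPBP (−2.51 ± 0.36), BMPER (−2.11 ± 0.47), TEX30 (−2.33 ± 0.55) and FASTKD1 (−2.10 ± 0.58) were also lower with NU7441. On the other side LRRN1, a leucine-rich repeat membrane protein, was at 5.05 and 5.30 after knockdown and 7.33 and 7.37 after NU7441 (2.17 ± 0.24), with controls between them at 6.40 and 5.90. ACKR3, an atypical chemokine receptor (7.67 and 7.48 against 9.07 and 9.21, 1.57 ± 0.14), MMP16, a membrane metalloprotease (7.67 and 7.52 against 9.08 and 9.03, 1.46 ± 0.14), DOCK9, an exchange factor for CDC42 (1.55 ± 0.19), TP53INP1 (1.53 ± 0.13), SYCE3 (1.52 ± 0.15), NUDT14 (1.55 ± 0.22), WDR11 (1.46 ± 0.19), RBL2 (1.42 ± 0.16) and RCAN3 (1.32 ± 0.17) were higher with NU7441.

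The lists counted first below were picked because they leaned one way against control. Both comparisons use the same NU7441 arrays, so they are not independent. By list, 22 of the 74 mitochondrial ribosomal protein genes and 10 of 25 import genes were lower with NU7441 than with depletion. So were 9 of 26 nucleoporins and 7 of 19 nucleotide and one-carbon genes, against 16.4% of all genes. In the same order, 0, 2, 1 and 1 genes of those lists were higher. Higher with NU7441 were 7 of 23 mTORC1 genes, 8 of 31 histone methylation genes, 7 of 14 remodellers and 10 of 33 cilium genes, against 14.6% of all genes, and 5 of 19 autophagy genes. Lower in these lists, in the same order, were 1, 1, 0, 1 and 2 genes. Lists split against control differed here too. Of 44 cytosolic ribosomal protein genes 11 were higher and 9 lower with NU7441, and of 38 polyamine and redox genes 9 and 11. These counts rest on few arrays: without knockdown replicate 1 or 2 the genes that differed numbered 89 and 281, without control replicate 1 or 2 828 and 832, and without NU7441 replicate 2 3075.

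**Figure D4:**
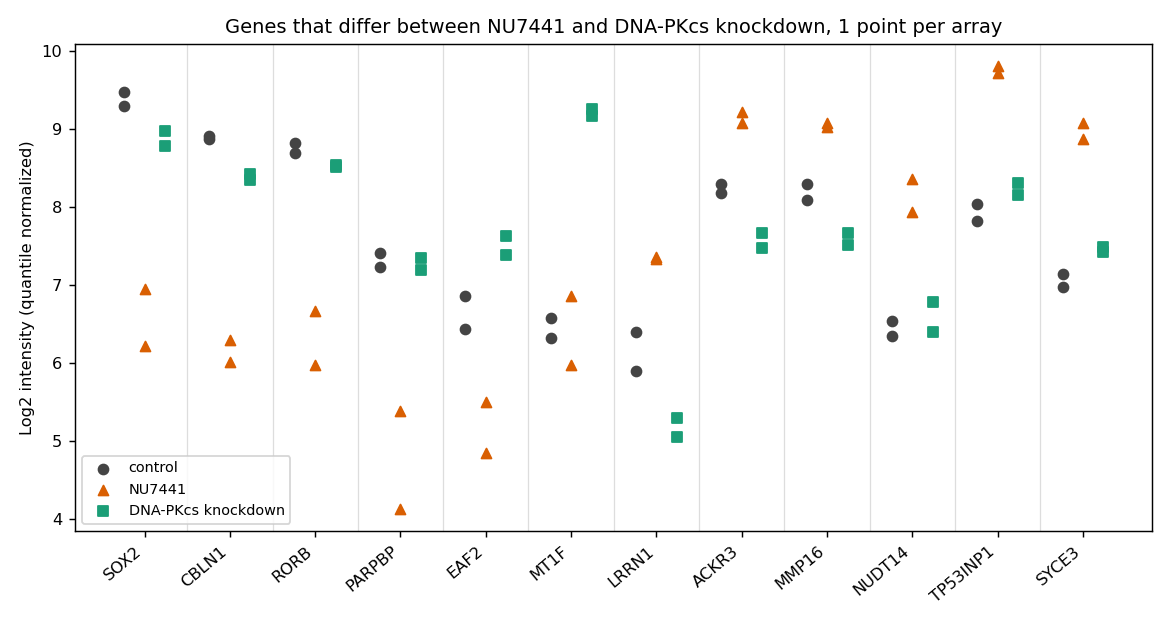
Log2 intensity (quantile normalized) of 12 genes on each of the 6 arrays, control (circles), NU7441 (triangles) and DNA-PKcs knockdown (squares), 1 point per array. The genes were picked for their difference between NU7441 and knockdown. SOX2, CBLN1 and RORB are low on the NU7441 arrays alone, TP53INP1 and SYCE3 high on them alone, MT1F is high on the knockdown arrays alone, and for LRRN1 the controls lie between the treatments.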

How the data were processed

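RNA from C4-2 cells was hybridised to 6 Affymetrix Human Gene 2.0 ST arrays, 1 per sample, and the number of arrays limits the precision. The authors deposited 1 linear intensity per probeset and array, at or above 16; no source used here gives their software or scaling, and the values were taken as linear because of their range. The 44629 intensities per array were turned to log2 and quantile normalized. Gene symbols came from GEO's platform annotation, updated through RefSeq tables: 15835 probesets had 1 symbol, 0 several and 28794 none. Each of 14812 genes was represented by its brightest probeset (651 had more than 1), and 5195 with a mean log2 above 6 were tested. PRKDC, which encodes DNA-PKcs, is not among the named probesets and was not analysed here.

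All 6 arrays entered 1 fit with limma 3.58.1 (R 4.3.3; lmFit, eBayes with a trend), with a two-sided test, Benjamini-Hochberg adjustment over the tested genes, a threshold of 0.05 and 3 residual degrees of freedom, and the procedure was tested on simulated data. Gene lists were described by counts and medians. The genes, lists and rules were chosen with earlier results of these data known. Named genes were list members, with at least the 2 highest and 2 lowest called of a list, and the 20 highest and 20 lowest called genes whose arrays did not overlap (10 each against knockdown), leaving out small RNAs, antisense and uncharacterised entries, pseudogenes, near-identical families and cell cycle, sterol and lysosome genes. One further gene among the 20 highest and a gene list are not reported here. Kinases that a name pattern had placed in the microtubule list, and MST1 in the Hippo list, were taken out after the files were seen. Alternatives were other scalings, filters, probeset rules and fits, a replicate block, and each array left out.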

Additional observations from a re-analysis of the deposited data

Results flagged for a closer look

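Probesets without a gene name took no part in the comparisons above, and many of them differed as well. Of 4025 that passed the brightness filter, 2362 (58.7%) passed the adjusted threshold of 0.05 in limma's test. After NU7441 1252 were higher and 1110 lower, against a called share of 60.9% of the named genes. What these probesets read was not analysed here.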

How the results depend on the processing

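The count of 3165 genes called for NU7441 against control stayed within 1.5 times under other scalings, with no filter, with the compared groups alone, without a trend, with the mean of probesets and with group weights, an alternative chosen after seeing the data. With no filter the count was 4154, but of 14812 genes, so that the share called was 28% in place of 60.9%, and the order of higher and lower counts turned in 3 of 54 lists. The count became 2073 with a mean log2 above 7, where fewer genes are tested, and 971 when a 2-fold change was also asked for, a rule added after seeing the data. With 1 array left out it ran from 1466 to 3928, the lowest without a control array. Against knockdown 1614 genes were called, 909 with the compared groups alone, 388 at 2-fold or more, and 89 to 3075 with 1 array left out, the lone array of a group being assumed to vary like the other groups. The labels do not say whether equal replicate numbers pair the samples. Deviations from the group means correlated at 0.000886 between control and NU7441, −0.036 between control and knockdown and −0.171 between NU7441 and knockdown. With 2 arrays per group these values cannot decide it. With the replicate number as a block the counts were 3005 and 1316. Of 378 named genes called against control, 224 kept the call under every alternative. YAP1 (−0.44) and VARS1 (−0.21) turned sign with the mean of probesets, and KDM6A (−0.50 to 0.35) and MT1F (−0.47 to 0.41) turned with 1 NU7441 array left out; the cause was not tested. Median centring turned the order of higher and lower counts in 14 of 54 lists, and 4 list medians changed side of the median of all genes with the scaling. The NU7441 arrays had more probesets at the floor, and the dim genes, 35.1% of named genes being tested, were not analysed.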
